A study of Homo sapiens with 5 samples.

Results

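The genes described here encode the eukaryotic translation initiation factors, the proteins that bring a ribosome to the start codon of an mRNA. Members were all introns whose gene symbol begins with EIF and a digit and whose depth plus spliced reads reached 10 in both libraries of a table. They numbered 146 distinct introns in 41 genes, of 33693 distinct introns tested in the series. The table of WBP11 RNAi held 65 of them among 16068 introns, the table of SNW1 RNAi 111 among 23366, and the table of WBP11 auxin depletion 95 among 21828. No listed EIF intron fell under the depth minimum. The members with the fewest reads were EIF4ENIF1 intron 18 for WBP11 RNAi (33.2 in the smaller library), EIF2AK3 intron 4 for SNW1 RNAi (28.0) and EIF2AK3 intron 4 for WBP11 auxin (20).

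The libraries came from DLD-1, a human colorectal adenocarcinoma cell line, and each of the 5 groups had 1 library. WBP11, a splicing factor of the spliceosome, was lowered by 100 nM siRNA for 72 h in DLD-1 LacZeo cells. SNW1, a spliceosome component, was lowered by the same dose and time of siRNA in the same cells. The control of both has the treatment label None and is named a control RNAi library in the file headers. The other control and the WBP11 auxin library are both labelled DLD-1 LacZeo osTIR1 and both received 500 µM auxin for 48 h. The series text describes the depleted WBP11 as an AID-tagged transgene in cells whose endogenous WBP11 was knocked out. No library of that line without auxin was analysed here, so a difference of line and the loss of WBP11 cannot be told apart. Whether any line is 1 clone is not stated. With 1 library a group no difference could be tested. All intervals are 95% intervals for counting error between the 2 libraries, and reads are not independent molecules.

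In cap-dependent initiation the eIF4F complex binds the cap and eIF3 binds the small ribosomal subunit, to which eIF2 delivers the initiator tRNA with GTP. After each round eIF2B, a complex of 5 kinds of subunit, exchanges the GDP on eIF2 for GTP. Kinases that phosphorylate the alpha subunit of eIF2 turn it into an inhibitor of eIF2B, which is the central step of the integrated stress response. Retention of an intron is read here as the deposited ratio, close to the read depth across the intron over that depth plus the reads spliced across it, given in percent. A gain or loss is given in percentage points, and an intron is called higher or lower at a difference of 10 points or more.

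The introns on which the results turn are shown 5′ to 3′ on the strand of the gene, with the first 6 and the last 3 bases of the intron in capitals. They were read from GENCODE release 29 transcripts that contain the intron, on hg38. The introns of EIF2B5 and EIF2B4 were the members higher in the most tables, and those of EIF3B and EIF5A are short introns that were higher in the auxin table.
EIF2B5 intron 12 of 15, coding region, chr3:184143143-184143441, plus strand, 299 bp: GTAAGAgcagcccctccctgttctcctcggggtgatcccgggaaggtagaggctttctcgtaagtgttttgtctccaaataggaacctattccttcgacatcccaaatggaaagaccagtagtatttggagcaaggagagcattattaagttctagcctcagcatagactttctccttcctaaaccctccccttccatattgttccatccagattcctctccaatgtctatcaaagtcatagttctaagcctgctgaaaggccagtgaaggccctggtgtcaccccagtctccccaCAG
EIF2B4 intron 10 of 12, coding region, chr2:27366937-27367073, minus strand, 137 bp: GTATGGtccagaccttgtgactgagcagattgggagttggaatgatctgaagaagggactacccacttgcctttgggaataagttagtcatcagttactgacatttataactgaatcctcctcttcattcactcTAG
EIF2B4 intron 6 of 12, coding region, chr2:27368140-27368371, minus strand, 232 bp: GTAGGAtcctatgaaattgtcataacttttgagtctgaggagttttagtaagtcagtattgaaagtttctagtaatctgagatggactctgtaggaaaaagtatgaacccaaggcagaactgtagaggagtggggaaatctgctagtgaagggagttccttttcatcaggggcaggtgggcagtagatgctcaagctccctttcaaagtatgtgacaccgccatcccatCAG
EIF3B intron 7 of 18, coding region, chr7:2366449-2366524, plus strand, 76 bp: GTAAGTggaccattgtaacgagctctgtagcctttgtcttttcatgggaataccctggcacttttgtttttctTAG
EIF5A intron 4 of 5, coding region, chr17:7311482-7311577, plus strand, 96 bp: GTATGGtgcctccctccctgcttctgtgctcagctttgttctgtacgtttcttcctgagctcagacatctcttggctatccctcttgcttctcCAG
Of the 146 introns, 145 lie in the coding region, 1 lies in a 5′ UTR (EIF4G1 intron 2) and 8 overlap an annotated exon. A sequence was found for 47 of the 146, and for 14 of the 20 introns that were higher in at least 1 table.

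Read through from the exon before, 11 of the 13 coding introns that were higher and had a sequence held an in-frame stop codon. So did 28 of the 33 EIF introns higher in no table, and 3715 of the 4535 coding introns among all listed with a sequence. A stop is thus usual in introns and no trait of the higher ones. In EIF2B5 intron 12, EIF2B4 intron 6 and EIF3B intron 7 the stop begins at base 2 of the intron, and in EIF2B4 intron 10 at base 80. EIF5A intron 4 held no in-frame stop, and its length is a multiple of 3, so a transcript that keeps it stays in frame. EIF2B4 intron 7 held no stop either, but its length shifts the frame. The search covered the intron and the codon that spans its 5′ border, not the codon that spans its 3′ border. On the strand of the gene, the 6 bases GTAAGT opened 1 of the 14 higher introns, in EIF3B, and 6 of the 33 others, beside 8.38% of all 4760 listed introns with a sequence. EIF2B1 intron 5 opens with GC in place of the usual GT, as its border aggGCAAGTaccttt shows, with the 6 intron bases in capitals.

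Each table held EIF introns that were higher and none that was lower. After WBP11 RNAi 3 of 65 EIF introns were higher, which is 4.62% of them beside 9.07% of all introns tested, and 0 were lower beside 1.69%. After SNW1 RNAi 12 of 111 were higher, or 10.8% beside 16.6%, and 0 were lower beside 0.359%. After WBP11 auxin depletion 11 of 95 were higher, or 11.6% beside 13.8%, and 0 were lower beside 1.37%. The median difference over EIF introns was 0.312 points, 1.75 points and 1.39 points in that order, beside 0.756, 2.63 and 1.45 points over all introns tested. The interval excluded 0 for all 26 calls. Over all introns called higher it lay above 0 for 1138 of 1457, 3216 of 3876 and 2479 of 3015. Calls were picked for a large difference and EIF introns had more reads, so the 26 are no separate support. The plot of depleted against control retention shows these points.

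**Figure D1:**
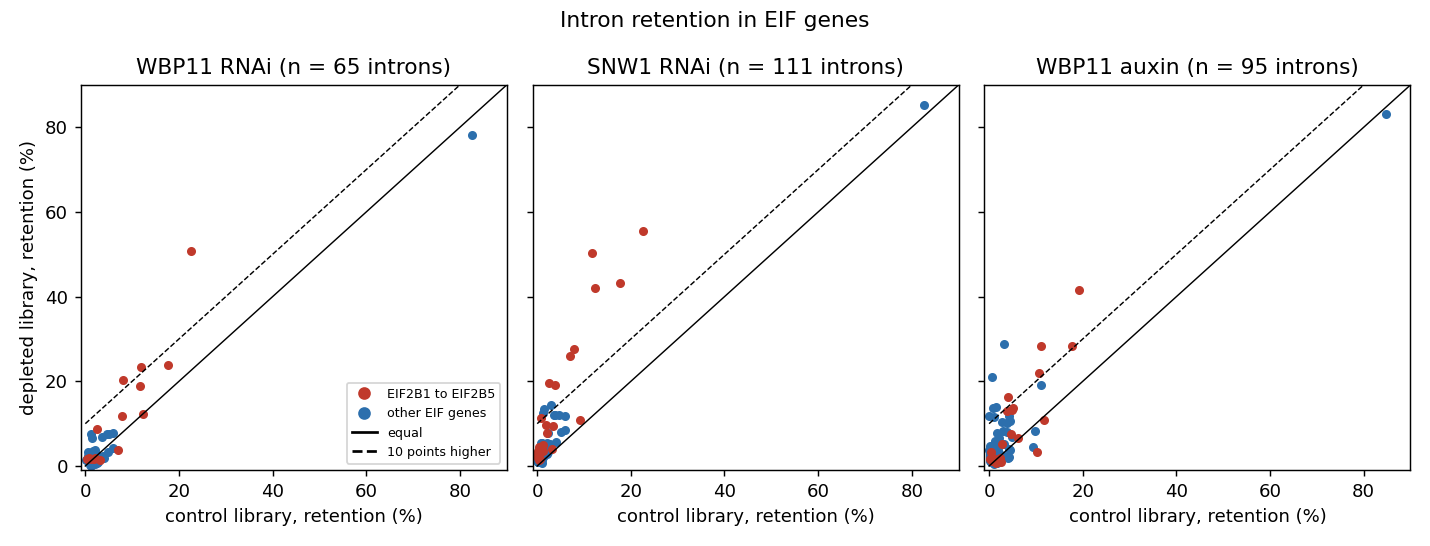
Retention (%) of each EIF intron in the depleted library (vertical axis) against the control library (horizontal axis) for the 3 comparisons, with introns of EIF2B1 to EIF2B5 in red and all other EIF introns in blue; the solid line marks equal values and the dashed line 10 points higher. The 3, 12 and 11 introns called higher lie on or above the dashed line, and the point near 80% on both axes is EIF3B intron 1, which overlaps an annotated exon.

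The tables list introns that reach 1% retention in at least 1 library and carry no warning of the caller in at least 1, so an intron under 1% in the control is listed only when it was above 1% in the depleted library. Against this, 36 of 65 EIF introns were above the control after WBP11 RNAi, 110 of 111 after SNW1 RNAi and 70 of 95 after WBP11 auxin. The shares over all introns tested were 59.6%, 91.3% and 72.8%. The intervals of 12 EIF introns lay above 0 and those of 12 below 0 after WBP11 RNAi. For SNW1 RNAi 58 lay above 0 and 0 below, and for WBP11 auxin 40 lay above and 4 below. Over all introns tested, 2289 of 16068 lay above 0 and 589 below after WBP11 RNAi. After SNW1 RNAi these were 7246 and 68 of 23366, and after WBP11 auxin 4488 and 468 of 21828. EIF introns had more reads than introns in general, which narrows their intervals, so these counts do not compare like with like.

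The targeted genes were read first. Spliced reads of WBP11, as a share of the spliced reads of all introns tested, were 7.16% of control after WBP11 RNAi (12 against 176 reads, 1 intron). Those of SNW1 were 10.2% of control after SNW1 RNAi (31 against 401 reads, 2 introns). In the auxin libraries WBP11 was at 38.0% over 1 intron in its 5′ UTR, which checks neither the protein nor the tagged transgene. SNW1 was at 65.3% after WBP11 auxin (335 against 445 reads, 1 intron) and at 141% after WBP11 RNAi (1 intron). WBP11 was at 196% after SNW1 RNAi (5 introns). Median depth plus spliced reads over EIF introns was 303 to 640 a library, beside 98.8 to 125 over all introns tested. Of the epithelial markers, introns of KRT18, KRT19 and CDH1 were listed in every table, and of the fibroblast and leukocyte markers only CD68, with 39 reads in the control of the WBP11 RNAi table. Spliced reads of all epithelial markers listed were lower after SNW1 RNAi, with CDH1 at 49.8%, KRT8 at 24.0%, KRT18 at 43.1% and KRT19 at 55.3% of control. After auxin KRT18 was at 46.4% and CDX2 at 60.2%, with CDH1 at 130% and KRT19 at 92.2%. After WBP11 RNAi CDH1, KRT18 and KRT19 were at 103%, 81.3% and 106%. The part of this in the retention values was not tested.

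The eIF2B genes held all 3 calls after WBP11 RNAi, 9 of the 12 after SNW1 RNAi and 5 of the 11 after WBP11 auxin. Introns of EIF2B1 to EIF2B5 were higher in 3 of 15 cases after WBP11 RNAi, 9 of 23 after SNW1 RNAi and 5 of 21 after WBP11 auxin. These are 20%, 39.1% and 23.8%, beside 9.07%, 16.6% and 13.8% of all introns tested. The other EIF genes had 0 of 50, 3 of 88 and 6 of 74, which are lower shares than over all introns. The median length of the eIF2B introns was 202 bp in each table. Of all introns over 100 and up to 300 bp, 13.6%, 24.1% and 13.2% were higher. The part of length in the eIF2B counts was not tested. With the median over all introns taken off each difference, the eIF2B calls numbered 3, 8 and 3. Retention in the control was also higher in the eIF2B introns, with medians of 6.98%, 2.04% and 4.07% beside 1.40%, 0.906% and 1.45% in the other EIF introns. The part of the control level in the difference was not tested. Over all introns with 5% or more in the control, 21.9%, 48.1% and 28.8% were higher, against 4.30%, 4.79% and 6.77% of those under 1%. Of the EIF introns with 5% or more, 3 of 12 were higher after WBP11 RNAi and 6 of 11 after SNW1 RNAi (25% and 54.5%). Of the EIF introns under 1%, 0 of 13 and 1 of 54 were higher (0% and 1.85%). Introns of one gene share a transcript and a library, so they are not independent.

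EIF2B5 encodes the catalytic subunit of eIF2B, and its intron 12 was the most retained of its listed introns in all 5 libraries. It stood at 22.5% in the control RNAi library, 50.8% after WBP11 RNAi, 55.4% after SNW1 RNAi, 19.1% in the auxin control and 41.5% after WBP11 auxin. All 3 depleted libraries lay above both controls. The differences were 28.3 points (interval 19.8 to 36.2), 33.0 points (24.8 to 40.4) and 22.4 points (16 to 28.2), and the first of them was read at a depth plus spliced reads (reads, for short) of 234 and 244. Intron 13 of 15, 533 bp at chr3:184143566-184144098, stood at 17.7% in both controls, 24.0% after WBP11 RNAi, 43.2% after SNW1 RNAi and 28.3% after WBP11 auxin. It was called in the last 2 of these, by 25.4 points (16.2 to 33.9) and 10.6 points (4.36 to 16.3). After WBP11 RNAi its interval of -2.11 to 14.1 points included 0. The call after auxin is lost at 9.15 points once the median over all introns is taken off.

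Other EIF2B5 introns differed less. Intron 6, 260 bp at chr3:184140158-184140417, was at 11.9% in the control RNAi library and 23.3% after WBP11 RNAi, a rise of 11.4 points (3.17 to 19.1). It was at 4.92% and 13.2% in the auxin libraries, and it was not listed for SNW1 RNAi. Introns 3 and 4, of 92 and 90 bp, differed by 8.47 and 9.26 points after auxin, and intron 4 is the EIF intron closest under the call of 10 points there. Introns 10 and 15 differed by less than 2 points in both WBP11 tables. In the plot by intron number the largest differences are at introns 12 and 13 after SNW1 RNAi, at introns 12 and 6 after WBP11 RNAi, and at intron 12 after WBP11 auxin.

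EIF2B4 encodes the delta subunit of eIF2B, part of the regulatory core. Its intron 10 stood at 7.95% in the control RNAi library, 20.4% after WBP11 RNAi, 27.6% after SNW1 RNAi, 11.1% in the auxin control and 28.2% after WBP11 auxin. As with EIF2B5 intron 12, every depleted library lay above both controls, and no other EIF intron was called in all 3 tables. The differences were 12.4 points (4.67 to 20.5), 19.6 points (11.6 to 27.5) and 17.1 points (10.3 to 23.7). Intron 6 showed the largest rise of any EIF intron, from 11.7% to 50.3% after SNW1 RNAi (38.6 points, 28.6 to 47.5). At 18.8% in the WBP11 RNAi library it was 7.06 points above control (-0.917 to 14.9), and went from 10.8% to 22% after auxin (11.2 points, 4.32 to 18.0). Taking off the median over all introns puts the auxin difference at 9.75 points, under the call.

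The remaining EIF2B4 introns differed between the depletions. All 5 of its introns listed for SNW1 RNAi were higher, against 1 of 5 for WBP11 RNAi and 3 of 6 for WBP11 auxin. Intron 7 rose from 6.98% to 25.9% after SNW1 RNAi, by 18.9 points (10.6 to 27.3), while it was at 3.79% after WBP11 RNAi and at 6.27% and 6.50% in the auxin libraries. Intron 8 rose from 2.56% to 19.5% and intron 4 from 3.71% to 19.1% after SNW1 RNAi. Intron 5 rose from 4.07% to 16.2% after auxin, by 12.2 points (6.78 to 17.8). The difference between depletions was not tested, and both siRNA libraries were set against 1 control.

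**Figure D2:**
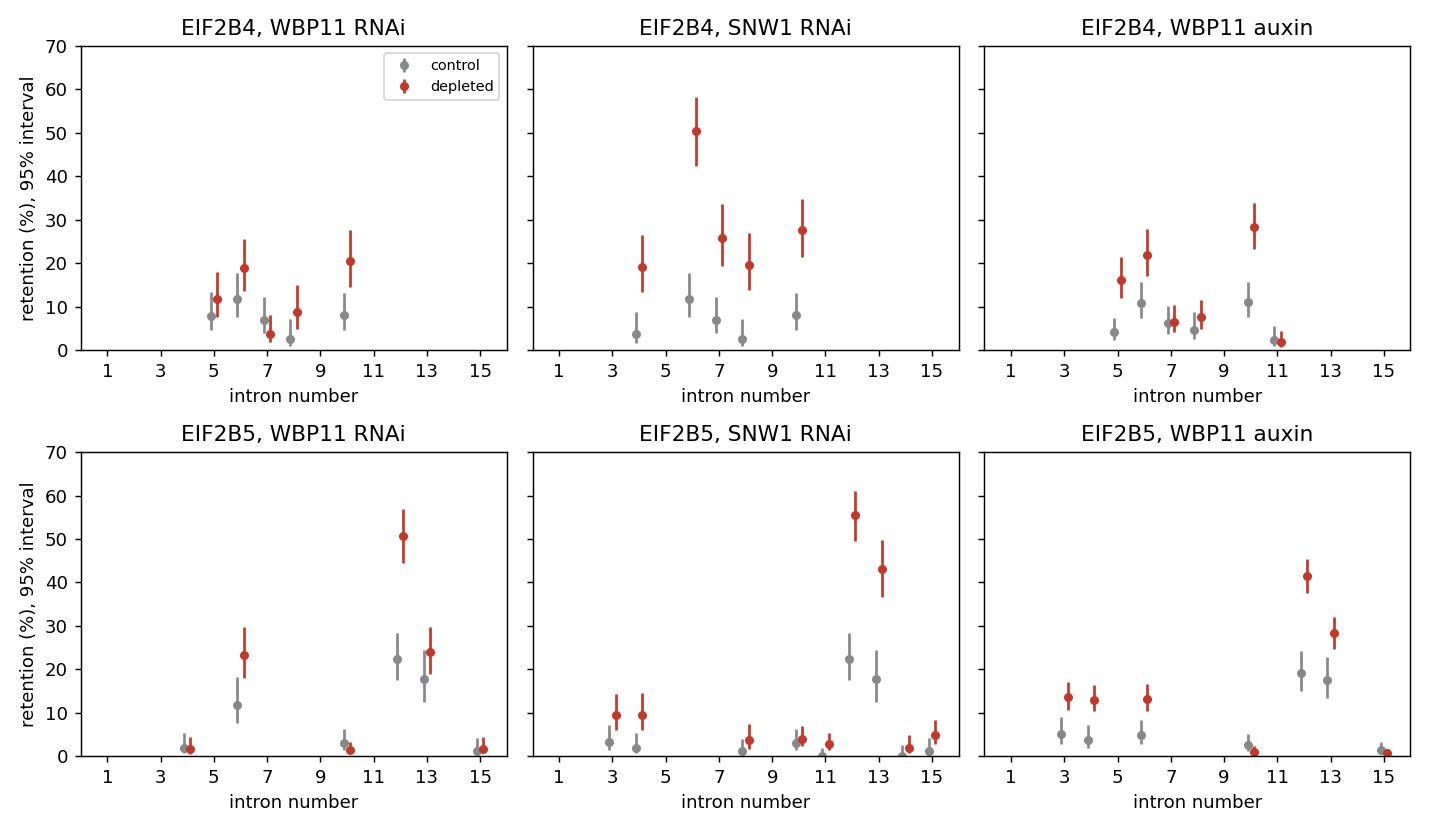
Retention (%) of each listed EIF2B4 intron (top) and EIF2B5 intron (bottom) by intron number in the control (grey) and depleted (red) libraries of the 3 comparisons; bars are 95% intervals for counting error. EIF2B5 introns 12 and 13 and EIF2B4 introns 6 and 10 stand highest after depletion, and all 5 listed EIF2B4 introns are higher after SNW1 RNAi.

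EIF2B1 encodes the alpha subunit of eIF2B, part of its regulatory core. Its intron 5, 550 bp at chr12:123626494-123627043, overlaps an annotated exon and has the GC border shown above. It was at 12.4% in the control RNAi library and after WBP11 RNAi, at 42.1% after SNW1 RNAi, and at 11.7% and 10.8% in the auxin libraries. The SNW1 library stood apart from the other 4, with a difference of 29.7 points (16.6 to 40.6). Intron 1 went from 0.834% to 11.3% after SNW1 RNAi, at 55.4 and 44.0 reads, so its interval ran from 0.888 to 23.1 points, and with the median over all introns taken off the difference is 7.83 points. The largest drop among the auxin values was in EIF2B1 intron 8, from 10.3% to 3.37%, a difference of -6.96 points that was not called. EIF2B2, the beta subunit, had 0 of 1, 0 of 4 and 0 of 3 introns called, and EIF2B3, the gamma subunit, had 1 intron in each WBP11 table, not called, and none listed for SNW1 RNAi.

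EIF2D, a factor related to DENR and MCTS1 that can deliver tRNA to the ribosome without eIF2, had 1 called intron. Intron 6 of 14, 497 bp at chr1:206602454-206602950, was at 1.41% in the control RNAi library and 13.5% after SNW1 RNAi, by 12.1 points (4.87 to 23.1), or 9.43 points with the median over all introns taken off. It was at 6.67% after WBP11 RNAi and at 2.69% and 10.5% in the auxin libraries. All 3 depleted libraries were above both controls, at 54.9 to 60.6 reads each. None of the introns of EIF2S1 and EIF2S3, which encode the alpha and gamma subunits of eIF2, was called. EIF2A intron 6 differed by 7.55 points (3.02 to 11.9) after auxin.

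Of the 4 kinases that phosphorylate eIF2 alpha, EIF2AK2 (PKR, which senses double-stranded RNA) had a called intron. Its last intron, intron 16, 78 bp at chr2:37107396-37107473, went from 0.604% in the auxin control to 21.1% after WBP11 auxin, by 20.5 points (16 to 25.3). It was not listed in the RNAi tables. EIF2AK1, EIF2AK3 and EIF2AK4 had 12 listed introns in the auxin table and EIF2AK3 and EIF2AK4 had 9 in the SNW1 table, none of them called.

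In the eIF3 genes 0 of 8 introns were higher after WBP11 RNAi, 0 of 20 after SNW1 RNAi and 2 of 18 after WBP11 auxin, beside 9.07%, 16.6% and 13.8% of all introns tested. The difference between tables was not tested. EIF3B, a core subunit of eIF3, had the largest rise of an EIF intron in the auxin table. Its intron 7 was at 5.03% in the control RNAi library, 7.59% after WBP11 RNAi, 8.05% after SNW1 RNAi, 3.09% in the auxin control and 28.8% after WBP11 auxin. Only the WBP11 auxin library was high, with a difference of 25.7 points (22.6 to 28.8) at 840 and 952 reads. EIF3A, the largest subunit, had intron 13 of 21 (82 bp, chr10:119056854-119056935) at 0.0216% in the auxin control and 11.8% after auxin, by 11.8 points (9.89 to 13.8). In the SNW1 table that intron was at 0.254% and 1.12%.

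Among the cap-binding, scaffold and helicase genes, EIF4E, the cap-binding protein, and EIF4G1, the eIF4F scaffold, were called after SNW1 RNAi. EIF4E intron 5 of 6, 2017 bp at chr4:98885062-98887078, was at 1.15% in the control RNAi library, 7.64% after WBP11 RNAi, 12.5% after SNW1 RNAi, 1.63% in the auxin control and 4.63% after auxin. Each depleted library was above both controls, but only the 11.4 points of SNW1 (7.70 to 15.3) reached the call. EIF4G1 intron 2 of 32, 217 bp at chr3:184315546-184315762, lies in the 5′ UTR, overlaps an annotated exon and went from 2.87% to 14.4%, by 11.6 points (6.52 to 17.0). With the median over all introns taken off, the EIF4E and EIF4G1 differences are 8.77 and 8.92 points.

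EIF4G2 encodes a relative of eIF4G that works without the cap-binding protein, and 2 of its 10 introns were higher after auxin. The 82 bp intron at chr11:10803129-10803210, intron 10 of 13 in the transcript that holds it, went from 0.738% to 13.7%, by 12.9 points (11.9 to 14.0). The 83 bp intron at chr11:10800648-10800730, intron 16 of 21, went from 1.42% to 13.9%, by 12.5 points (11.4 to 13.6). They were read at 2727 to 4218 reads a library, so their intervals are among the narrowest. In the RNAi tables the latter was at 0.576% in the control, 2.47% after WBP11 RNAi and 1.74% after SNW1 RNAi. EIF4A2, an RNA helicase, had intron 2 at 3.84% in the control RNAi library, 2.29% after WBP11 RNAi, 12% after SNW1 RNAi, 11.1% in the auxin control and 19.2% after auxin, none of which made a call.

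EIF5A helps ribosomes form difficult peptide bonds and acts beyond initiation. Its intron 4, which overlaps an annotated exon, was at 0.621% in the control RNAi library, 3.24% after WBP11 RNAi, 1.36% after SNW1 RNAi, 1.04% in the auxin control and 11.6% after auxin. The auxin difference of 10.6 points (9.82 to 11.3) lies just above the call, and is 9.12 points with the median over all introns taken off. The gene has a near-identical copy without introns, EIF5AL1, and how reads shared with it were assigned is not given in the sources used here. EIF5, EIF5B and EIF6, which act in GTP hydrolysis and the joining of the subunits, had no call where listed, nor did EIF1, EIF1B, EIF1AX and EIF1AD. Of these, EIF6 and EIF1B were not listed for WBP11 RNAi, and EIF1AX was listed in the auxin table alone, with 1 intron.

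**Figure D3:**
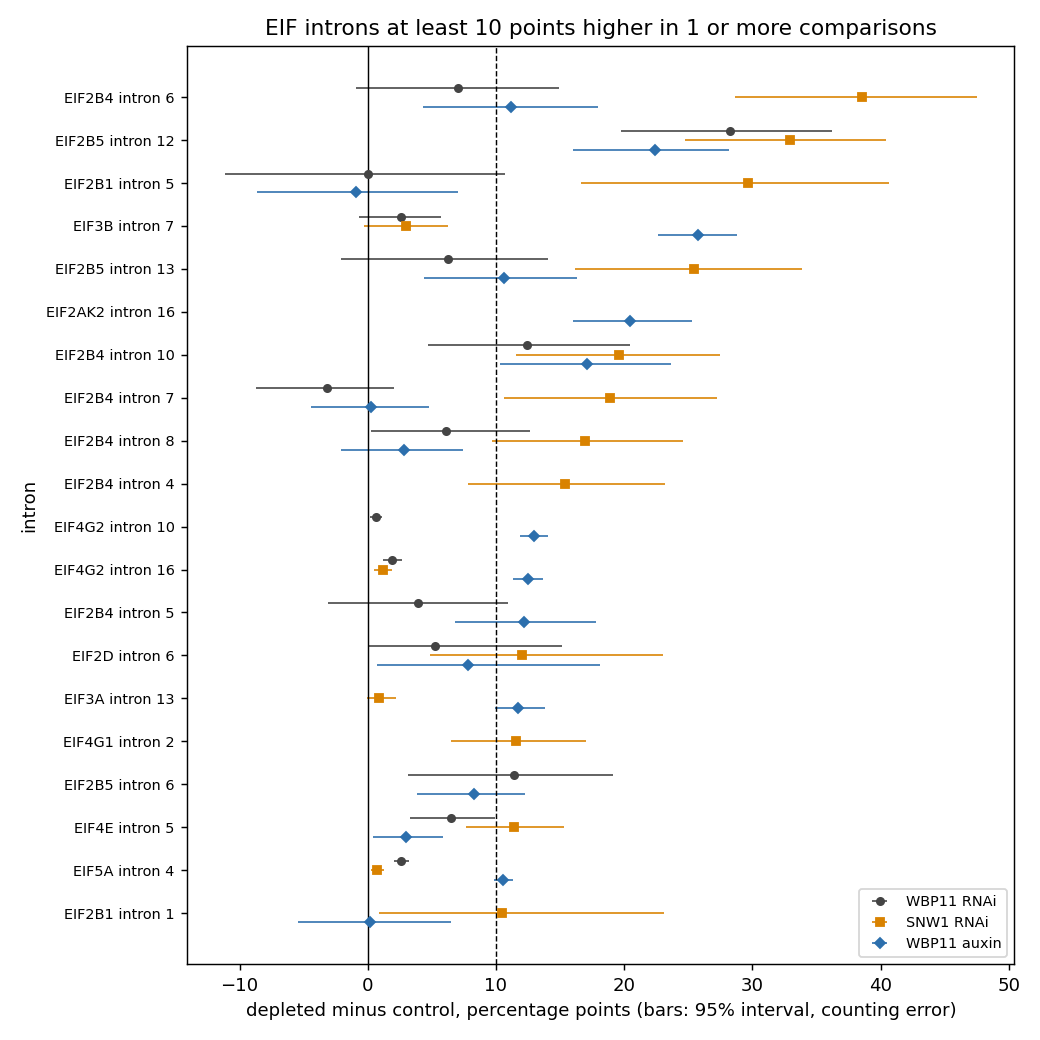
Difference in retention (depleted minus control, percentage points) of the 20 EIF introns that were at least 10 points higher in 1 or more comparisons, with circles for WBP11 RNAi, squares for SNW1 RNAi and diamonds for WBP11 auxin; bars are 95% intervals for counting error, and a missing symbol means that the intron was not listed. EIF2B5 intron 12 and EIF2B4 intron 10 are the introns with all 3 symbols right of the dashed line at 10 points.

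In all, 20 introns in 11 genes were higher in at least 1 table, 16 of them in 1 table only. Of the 146 EIF introns 43 were listed in all 3 tables, so some of the 16 had no value in another table. The share in 1 table only over all introns was not counted. Of the 3 higher after WBP11 RNAi, all 3 were listed for WBP11 auxin and 2 were higher there, which is 2 of the 11 higher after auxin, 9 of which were listed for WBP11 RNAi. Over all introns, 66.8% of those higher after WBP11 RNAi and tested after auxin were higher there too, and 33.7% the other way round. Of the 12 higher after SNW1 RNAi, 10 were listed for WBP11 auxin and 4 were higher there, which is 4 of the 11 higher after auxin, 8 of which were listed for SNW1 RNAi. Over all introns these shares were 42.0% and 51.8%. The 4 are EIF2B4 introns 6 and 10 and EIF2B5 introns 12 and 13, and with the median over all introns taken off 2 of them, EIF2B4 intron 10 and EIF2B5 intron 12, are called in both tables. The RNAi tables share a control, so no overlap between them is given, and their values for these introns stand side by side above.

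Outside EIF2B, all 6 EIF introns higher after auxin were 76 to 96 bp long. EIF introns of up to 100 bp were higher in 6 of 17 cases after auxin, or 35.3% beside 39.2% of all introns of that length, and in 0 of 8 and 0 of 11 after WBP11 RNAi and SNW1 RNAi, beside 16.4% and 26.9%. Of the EIF introns over 100 bp outside EIF2B, 0 of 59 were higher after auxin, beside 8.69% of all introns over 100 bp, a split made after the values were seen. The median length over the EIF introns of the auxin table was 397 bp. The plot of difference against length shows the short introns apart in the auxin panel, while in the RNAi panels the higher introns are longer.

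**Figure D4:**
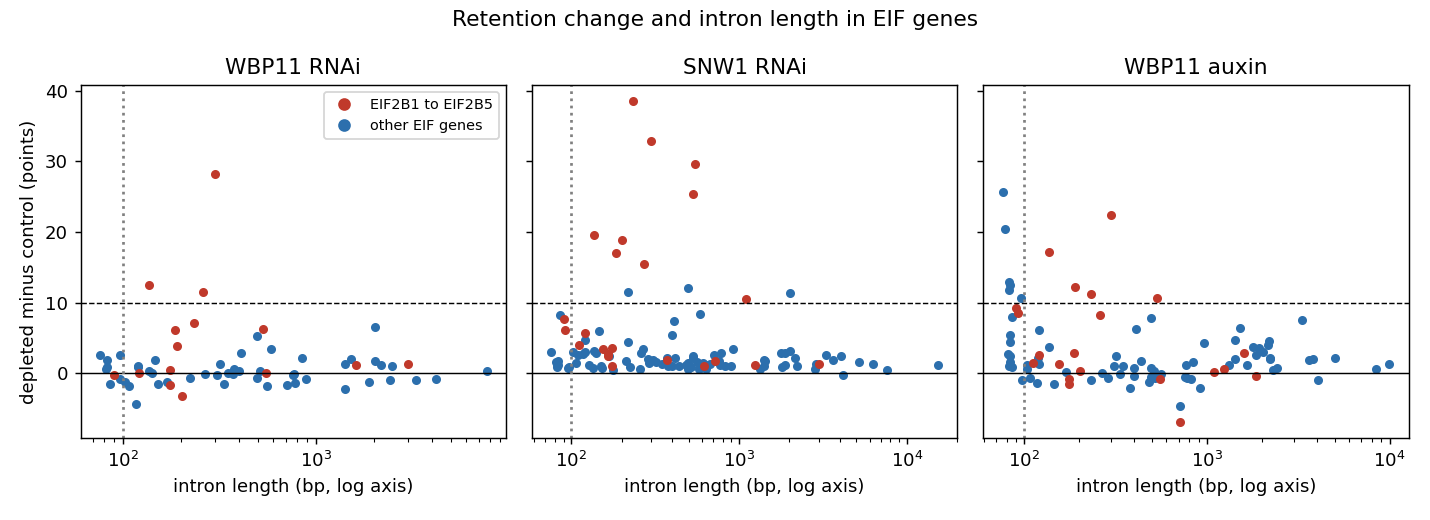
Difference in retention (points, vertical axis) against intron length (bp, log axis) for EIF introns in the 3 comparisons, EIF2B1 to EIF2B5 in red and other EIF genes in blue; the dotted line marks 100 bp and the dashed line 10 points. In the auxin panel the 6 blue points above the dashed line lie left of the dotted line, and no point does so in the RNAi panels.

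Spliced reads over the listed introns give a measure of the spliced transcript of each gene, here as a percent of control after scaling to all introns tested. Fewer cells, or less RNA in each, cannot be told apart in bulk RNA. A level of at most 50% of control was set as low after the values were seen. EIF2D was low in every table, at 25.4% (interval 22 to 29.2) after WBP11 RNAi, 37.7% (33.5 to 42.3) after SNW1 RNAi and 33.7% (28.0 to 40.4) after WBP11 auxin. The reads behind these were 1035 in the control and 250 after WBP11 RNAi, 1324 and 377 for SNW1 RNAi, and 430 and 167 in the auxin libraries. It was the lowest EIF gene in each table. Among genes with 100 or more spliced reads, 7.0%, 8.61% and 6.55% were as low, and among EIF genes 1 of 24, 1 of 34 and 4 of 38.

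The other 3 low genes were in the auxin table. EIF3K, an eIF3 subunit, was at 44.4% (41.6 to 47.3), EIF2AK1, the heme-regulated kinase, at 46.0% (40.3 to 52.5), and EIF2S3 at 49.7% (44.0 to 56.0). EIF1, which guards start codon choice, was at 206% (198 to 215) in the auxin table, and EIF2AK3, the kinase PERK of the endoplasmic reticulum, at 253% (197 to 325) after SNW1 RNAi. Spliced reads of EIF2B4 were at 97.4%, 102% and 91.6% and those of EIF2B5 at 124%, 151% and 163%. Neither gene was among the low ones. The median over EIF genes was 123%, 133% and 105%, beside 104%, 108% and 108% over all genes with 100 or more spliced reads.

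**Figure D5:**
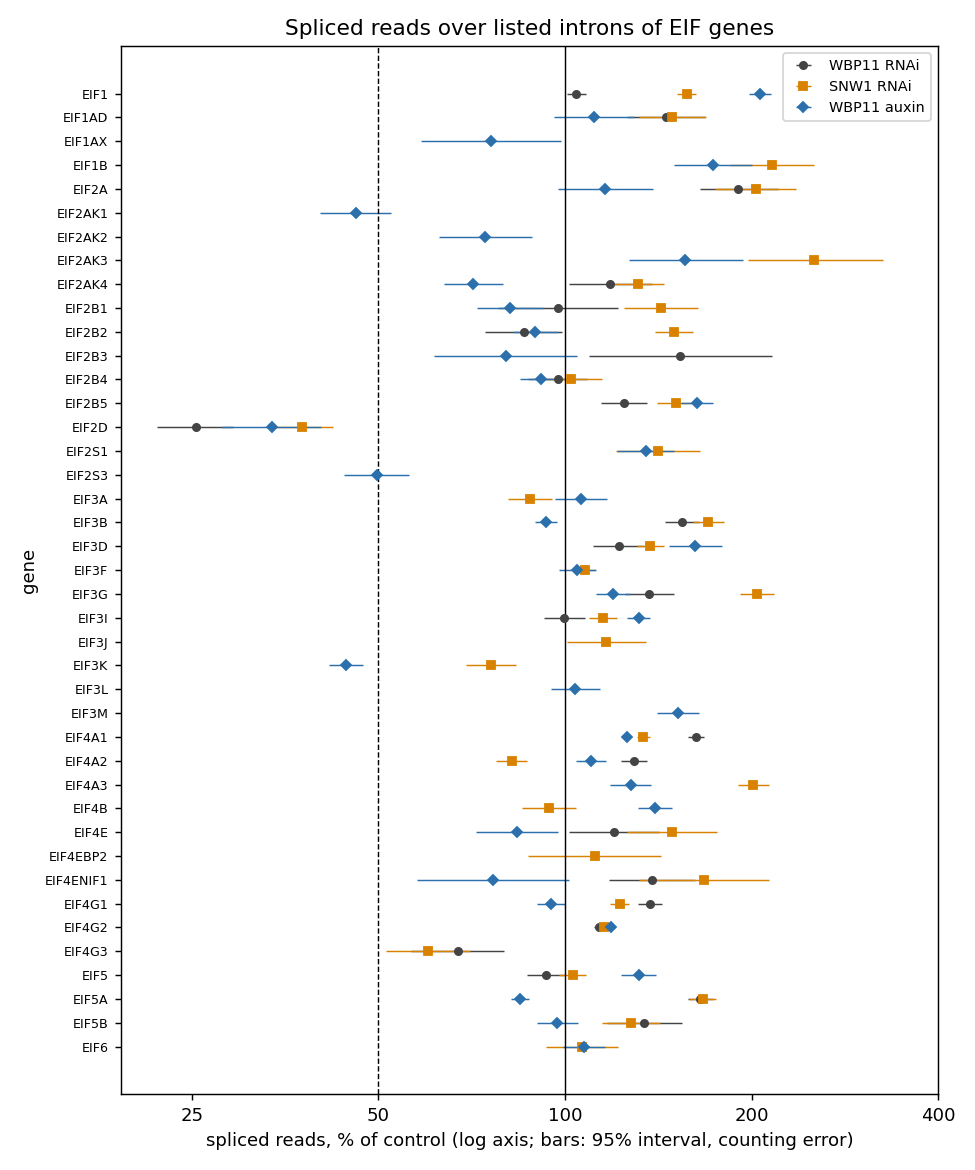
Spliced reads over the listed introns of each EIF gene as a percent of control (log axis) for WBP11 RNAi (circles), SNW1 RNAi (squares) and WBP11 auxin (diamonds); bars are 95% intervals for counting error, the solid line marks 100% and the dashed line 50%. EIF2D lies left of the dashed line in all 3 comparisons, at 25.4%, 37.7% and 33.7%.

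Genes that work with the initiation factors were read from lists of elongation and termination factors, other initiation factors, the integrated stress response, and mTORC1 and MNK signalling. Their counts stand beside 9.07%, 16.6% and 13.8% of all introns tested that were higher, and 1.69%, 0.359% and 1.37% that were lower, in the WBP11 RNAi, SNW1 RNAi and WBP11 auxin tables. Elongation and termination factors had 0 of 9, 1 of 18 and 4 of 17 introns higher in that order, or 0%, 5.56% and 23.5%, and none lower. EEF2K, the kinase of elongation factor 2, had intron 14 of 17 at 12.3% and 27.9% in the SNW1 table (interval -2.48 to 34.1 points) and at 17.7% and 54.9% in the auxin table (16.4 to 53.7). EEF2 itself had intron 13, 80 bp long, at 1.10% and 18.8% in the auxin table. Other initiation and poly(A) binding factors had 1 of 20, 2 of 30 and 1 of 25 higher and none lower. The call after WBP11 RNAi was CTIF intron 1, in a non-coding transcript, which overlaps an annotated exon. It was at 71.9% in the control RNAi library, 97.0% after WBP11 RNAi and 100% after SNW1 RNAi, where it was called too. The helicase DDX3X had intron 12, 79 bp long, at 1.35% and 22.6% in the auxin table, and PABPC4 had intron 11 at 5.46% and 16.4% in the SNW1 table.

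Integrated stress response genes had 1 of 20, 6 of 32 and 5 of 20 introns higher (5%, 18.8% and 25%), and 1 lower in the auxin table. GCN1, a partner of the kinase encoded by EIF2AK4 and named GCN1L1 in the tables, had intron 15 of 57 at 10.1% in the control, 29.2% after WBP11 RNAi and 39.5% after SNW1 RNAi. Its intron 20 was at 4.27% and 30.5% in the SNW1 table and at 9.44% and 33.0% in the auxin table. DNAJC3, an inhibitor of eIF2 alpha kinases, had intron 8 at 0% and 29.4% in the auxin table, with 35.0 reads in the control. DDIT3 (CHOP, a transcription factor of the response) had the lower intron, intron 1 in its 5′ UTR, at 19.1% and 4.57% (interval -28.6 to -5.21 points). Its intron 3, 88 bp long and overlapping an annotated exon, was higher in the same table, at 32.0% and 49.5% (interval 3.42 to 29.4 points). Its spliced reads were at 762% (595 to 988) of control after auxin, and at 39.1% and 60.9% after WBP11 RNAi and SNW1 RNAi. After auxin the spliced reads of ATF4, ASNS, CHAC1 and DNAJC3 were also above control, at 137%, 126%, 145% and 342%, while GCN1 was at 70%. After WBP11 RNAi and SNW1 RNAi, which share a control, ASNS was at 48.3% and 47.3% and PPP1R15A at 45.0% and 62.6%, but ATF4 at 102% and 113%, DNAJC3 at 213% and 155%, and GCN1 at 93.5% and 103%. CHAC1, listed for SNW1 RNAi, was at 109% there.

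Genes of mTORC1 and MNK signalling, which control eIF4E and its partners, had 4 of 51, 11 of 55 and 7 of 65 introns higher (7.84%, 20% and 10.8%) and 1 lower, intron 4 of TSC2 after WBP11 RNAi (18.3% and 5.62%, interval -25.4 to 1.48 points). Other TSC2 introns were higher. Intron 12 rose by 10.9 points (0.380 to 23.1) after WBP11 RNAi. Intron 11 rose by 19.6 points (5.97 to 32.9) after SNW1 RNAi and by 26.7 points (11.6 to 40.7) after auxin. TSC1 intron 21, 77 bp long, was at 6.45% in the auxin control and 62.7% after auxin, by 56.2 points (37.1 to 68.1), at 30 and 62.3 reads. The kinase gene RPS6KB2 had intron 6, 79 bp long, at 0.529% and 11.1% after WBP11 RNAi and at 4.47% and 36.0% in the auxin table. After SNW1 RNAi its largest rise was in intron 9, from 8.41% to 33.0%.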

How the data were processed

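Members and lists were chosen with earlier results of these data known. The splits into EIF2B and other EIF genes, the classes of length and control retention, the spliced reads per gene and the sequence features were chosen after the values were seen. The libraries were polyA RNA. The authors deposited 3 tables of 1 depleted against 1 control library, made with IRFinder from STAR alignments per the file headers; RSEM, bedtools and the build hg38 are named in the submitters' processing notes, without versions. The retention ratio is a fraction as deposited, the intron depth a deposited coverage signal, and spliced reads a deposited count. Among EIF introns the ratio differed from depth over depth plus spliced reads by at most 5.66 points. Reads of overlapping exons or genes can add to the depth. Each listed intron was free of warnings in 1 or both libraries and at 1% or more in 1 or both. Deposited p-values were not used. Both RNAi tables hold the same control library: depth and spliced reads agree in all 13412 shared introns.

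Tested introns had depth plus spliced reads of at least 10 in both libraries. Higher and lower mean 10 points or more. Intervals are Wilson for a ratio, Newcombe for a difference and exact binomial for spliced reads, at 95%, for counting error alone. With 1 library a group, differences were described without a test. Named introns are all those called, with the most detail for the largest; listed pathway genes give up to 3 rises and 1 fall a list and table. Positions come from GENCODE release 29, counted from 1, and match all 146 introns. The call rule and intervals were run on simulated counts with planted rises. Those counts were drawn from the counting model that the intervals assume, without spread between libraries, so the run checks the code and not the calls. Alternatives were other thresholds, depth minimums and denominators, 1 intron per gene, and leaving out introns with warnings or annotated exons. Calculations used Python 3.11.15, numpy 2.4.6 and scipy 1.17.1.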

Additional observations from a re-analysis of the deposited data

Results flagged for a closer look

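Members were looked at again where their intervals lay on opposite sides of 0 in 2 comparisons. This happened 12 times, in 8 introns. WBP11 RNAi and SNW1 RNAi had 55 EIF introns in common, WBP11 RNAi and WBP11 auxin 52, and SNW1 RNAi and WBP11 auxin 61. The share over all introns was not counted, so whether EIF introns differ from the rest here is not known. No median was taken off these values. Over all introns tested after SNW1 RNAi the median was 2.63 points and 91.3% lay above control. Several of the SNW1 RNAi values below lie under that median, so their sign depends on this shift of the whole table. The difference between the comparisons was not tested, and none of these values was called.

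Between WBP11 RNAi and SNW1 RNAi, which share a control library, the values in points were -1.46 and 2.84 for EIF4A2 intron 4, -1.55 and 8.18 for EIF4A2 intron 2, and -0.802 and 0.915 for EIF4A1 intron 10, all in genes of the eIF4A helicases. They were -1.73 and 2.60 for EIF1 intron 1, -0.715 and 1.44 for EIF4G2 intron 5, and -1.24 and 2.92 for EIF5 intron 3.

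Between WBP11 RNAi and WBP11 auxin they were -2.21 and 1.95 for EIF3B intron 14, -0.715 and 0.69 for EIF4G2 intron 5, and -1.55 and 8.01 for EIF4A2 intron 2. Between SNW1 RNAi and WBP11 auxin they were 0.915 and -0.911 for EIF4A1 intron 10, 2.60 and -4.71 for EIF1 intron 1, and 1.20 and -1.19 for EIF3G intron 2. EIF1 intron 1 stood at 9.30% in the auxin control and at 5.96% in the control RNAi library.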

How the results depend on the processing

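Values are given as WBP11 RNAi, SNW1 RNAi and WBP11 auxin; the counts of higher introns were 3, 12 and 11. At 5 points they were 8, 20 and 21, with 1 lower intron for WBP11 auxin; at 20 points 1, 4 and 3. A 2-fold rule with a pseudocount of 0.01 gave 9, 51 and 37 higher, and 4 lower for WBP11 RNAi and 1 lower for WBP11 auxin. With 1 intron per gene the counts were 0, 2 and 4, and the SNW1 median 1.28 points. Without introns with a warning they were 1, 4 and 7. Added after seeing the data, leaving out the EIF2B genes gave 0, 3 and 6 and a WBP11 RNAi median of 0.0143 points against 0.312. Leaving out introns that overlap an exon gave 3, 10 and 10, and a depth minimum of 50 gave 3, 11 and 11. Median centring gave 3, 8 and 8 and put 7 calls under 10 points: EIF2B1 intron 1, EIF2D intron 6, EIF4E intron 5 and EIF4G1 intron 2 for SNW1 RNAi, and EIF2B4 intron 6, EIF2B5 intron 13 and EIF5A intron 4 for auxin. Of 93 alternatives of counts and medians 71 stayed within the limits set, and no median changed sign. Of the 26 differences named, 0 changed sign under any of the 3 recomputations. No paired analysis was possible because each group had 1 library. No leave-one-out analysis was possible for the same reason. Intervals cover counting error, not the spread between cultures.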
